A study of Mus musculus with 30 samples.

Results

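The abdominal aorta was profiled for miRNAs in male C57BL6 mice, an inbred laboratory strain, that had received either of 2 diets. The HFD aortas (labelled AA-HFD, 3 samples) came from mice on a high-fat diet with 60% fat, and the NCD aortas (AA-NCD, 3 samples) from mice on normal chow. Both diets were given ad libitum from 4 weeks of age until 20 weeks of age, and no transgene, deletion or other treatment is named for these mice. All samples titled AA-HFD or AA-NCD were taken, 6 of the 30 samples of the series, and all 566 probes for mouse miRNAs were read in them. Mesenteric adipose tissue of mice on the same diets (MAT-HFD and MAT-NCD, 5 samples each) was used only to ask whether the diet difference in aorta differed from that in fat. The labels number the samples without saying whether each came from 1 animal or from a pool. The p-values thus rest on a sample-to-sample spread that may be technical only.

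A miRNA is a short RNA that guides a silencing complex to messenger RNAs, mainly through pairing of its seed (bases 2 to 8), and lowers their translation and stability. The aortic wall consists mostly of contractile smooth muscle cells under a thin endothelium, with fibroblasts and surrounding fat outside. miR-143 and miR-145, made from 1 transcript, help keep smooth muscle contractile, and miR-126 is the characteristic miRNA of endothelium. In obesity, adipose and vascular tissue can take up immune cells and shift their metabolism, and the let-7 family is known from mice as a regulator of insulin signalling.

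The sequences shown first are the mature let-7 family, which supplied 3 of the 11 smallest p-values in aorta. Capitals mark the seed.
let-7g-5p: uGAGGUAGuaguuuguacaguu
let-7f-5p: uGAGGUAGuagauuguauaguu
let-7i-5p: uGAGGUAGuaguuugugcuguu
let-7d-5p: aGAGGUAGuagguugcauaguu
let-7c-5p: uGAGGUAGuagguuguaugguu
let-7b-5p: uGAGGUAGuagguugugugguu
let-7e-5p: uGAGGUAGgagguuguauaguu
let-7a-5p: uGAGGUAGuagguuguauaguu
miR-98-5p: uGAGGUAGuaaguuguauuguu
All 9 share the seed, and any pair of them differs at 1 to 6 of 22 bases, so a probe for one member may also take up RNA of another. The sequences are RefSeq's for build GRCm38.p6. let-7g lies at chr9:106178846-106178867 on the plus strand within the span of Wdr82, let-7i at chr10:122985698-122985719 on the minus strand outside any other annotated gene, and let-7d at chr13:48536078-48536099 on the minus strand, likewise outside. let-7f is listed at chr13:48537889-48537910 on the minus strand and at chrX:151912353-151912374 on the plus strand, the second within Huwe1.

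The next set holds the other miRNAs with the smallest p-values for which RefSeq's table gives a sequence, and miR-204, which was lower after HFD under every scaling tried.
miR-132-3p: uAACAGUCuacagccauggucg
miR-652-3p: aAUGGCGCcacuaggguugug
miR-342-3p: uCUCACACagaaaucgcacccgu
miR-181a-5p: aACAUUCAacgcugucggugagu
miR-23a-3p: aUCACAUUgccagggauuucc
miR-25-3p: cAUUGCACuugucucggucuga
miR-204-5p: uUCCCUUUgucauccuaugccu
These 7 have 7 different seeds, none of them that of let-7. miR-132 lies at chr11:75173723-75173744 (plus) outside any other gene span and miR-652 at chrX:142739060-142739080 (plus) within Tmem164. miR-342-3p lies at chr12:108658680-108658702 (plus) within Evl and miR-25 at chr5:138165332-138165353 (minus) within Mcm7. miR-23a lies at chr8:84208563-84208583 (plus) and miR-204 at chr19:22750610-22750631 (plus) within Trpm3. miR-181a is listed at chr1:137966468-137966490 and at chr2:38852741-38852763, both plus, the second within Nr6a1. The deposited names give no arm for most of these, and the arm was assigned from the usual major strand.

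The total signal of the mouse miRNA probes was 221448, 262482 and 282170 in HFD aortas and 287152, 180695 and 174770 in NCD aortas. The groups overlapped (exact permutation test, two-sided, p = 0.40, n = 3 each), and 3 against 3 cannot give an exact p below 0.10. Over the detection limit of 29.8, the mean plus 2 SD of the negative controls, lay 97, 100 and 99 probes after HFD and 116, 98 and 90 on chow. The authors had multiplied the miRNA values of each sample by 1 factor, read from the spacing of low values as 1.49, 0.6025 and 1.096 in HFD aortas and 2.40, 0.934 and 0.789 in NCD aortas. NCD replicate 1 stood apart: LIG_POS_A, an artificial RNA that reports the ligation step, read 7827, 6045 and 8159 in HFD aortas and 50714, 4295 and 5946 in NCD aortas. Its log2 values over the 99 miRNAs tested correlated at Pearson r of 0.935 to 0.948 with the other 5 aortas, which correlated at 0.959 to 0.985 among themselves. With the factor undone NCD replicate 1 had instead the lowest total, with 148885, 435641 and 257520 in HFD aortas and 119754, 193465 and 221536 in NCD aortas. LIG_POS_A divided by the same factor still read highest there, at 5262, 10033 and 7447 in HFD aortas and 21150, 4599 and 7537 in NCD aortas. Results that rest on NCD replicate 1 are given below with and without it.

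**Figure D1:**
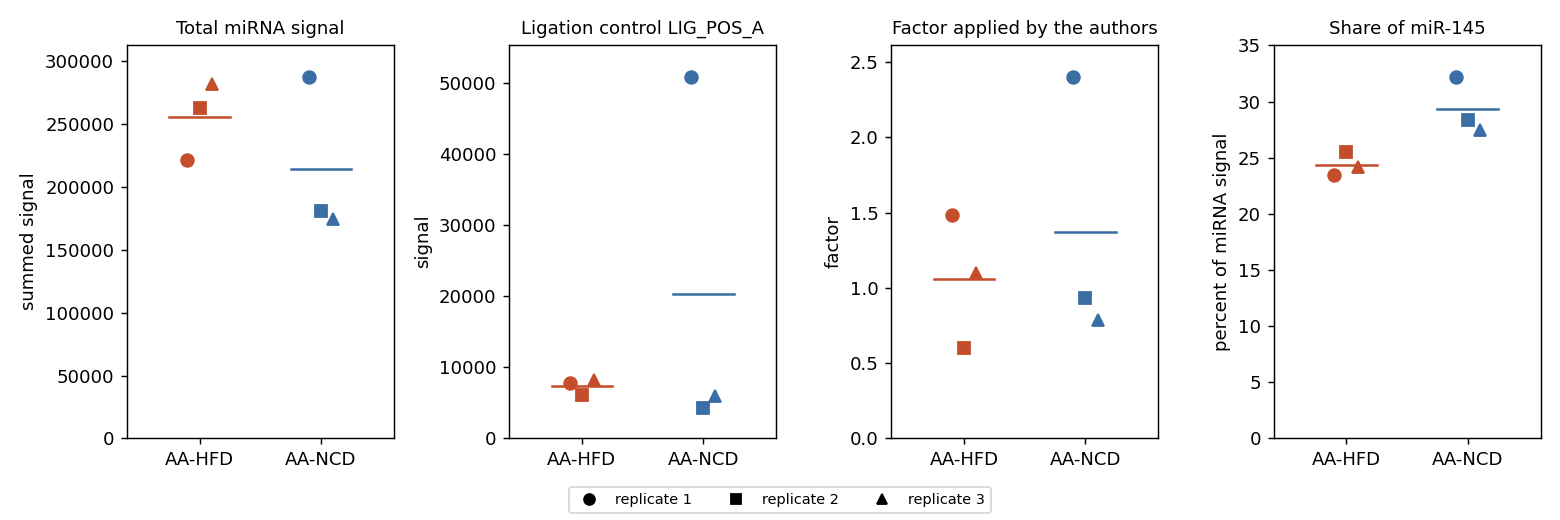
Values of each of the 6 aortas on linear axes from 0: summed miRNA signal, signal of the ligation control LIG_POS_A, the factor applied by the authors and the share of miR-145 in the miRNA signal (percent). Points are samples, shapes give the replicate number and lines the group mean. NCD replicate 1 has the highest total (287152), the highest ligation control (50714) and the largest factor (2.40), where the total depends on that factor, and the share of miR-145 is lower in all 3 HFD aortas than in any NCD aorta.

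The smooth muscle markers miR-145 and miR-143 and the endothelial marker miR-126-3p were over the detection limit in every aorta, as the tissue label implies. miR-145 had the highest mean signal over the 6 aortas. It read 51877, 67013 and 68276 in HFD aortas and 92330, 51195 and 48079 in NCD aortas. miR-143 was at 14208 ± 4495 after HFD and 12062 ± 4628 on chow (SD, n = 3 each). miR-126-3p, from an intron of the endothelial gene Egfl7, read 3592, 3579 and 4712 in HFD aortas and 3273, 2541 and 2981 in NCD aortas. In bulk tissue, fewer cells of a type and less RNA per cell cannot be told apart. The 10 brightest probes (miR-145, miR-125b-5p, miR-720, miR-143, miR-23a, let-7d, miR-22, miR-27a, let-7b and let-7g) made up 71.7% ± 0.77 of the miRNA signal in HFD aortas and 70.9% ± 3.2 in NCD aortas.

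The main comparison asked which miRNAs of the aorta differed with diet. miR-378, miR-132, the let-7 members g, f and i, miR-342-3p, miR-652, miR-181a, miR-23a, miR-25 and miR-2141 were higher after HFD by 1.38-fold to 3.17-fold, each with no overlap between the diets, but none passed the test over all miRNAs. Of 566 probes, 99 were over the limit in at least 3 of the 6 aortas and were tested, 434 were over it in none and 33 in 1 or 2. With limma on log2(signal + 1) and Benjamini-Hochberg adjustment, 0 of 99 (0.0%) passed at an adjusted p under 0.05, and the lowest adjusted p was 0.395. At an unadjusted p under 0.05 there were 11 of 99 higher (11.1%) and 0 lower (0.0%). Every HFD aorta lay above every NCD aorta for 25 of 99 (25.3%), and below for 0 of 99 (0.0%).

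The precision of 3 samples a diet set what could be seen. The 95% interval of a log2 difference reached a median of 0.76 to either side, from 0.41 for let-7c to 3.40 for miR-376a. For 46 of the 99 the interval excluded both a change of 1 log2 unit up and a change of 1 log2 unit down. For 52 it excluded a difference of 1 log2 unit up, and for 77 a difference of 1 log2 unit down.

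Most of the tested miRNAs stood higher after HFD on the deposited scale. Their log2 difference had a median of 0.24 (1.18-fold), and 79 of 99 (79.8%) were above 0. This split followed the scaling of the samples. The median was 0.04 with each sample centred on its median, 0.00 after quantile normalization, -0.01 after scaling to the 100 brightest probes and -0.04 after scaling to the total, with 54.5%, 48.5%, 47.5% and 41.4% above 0. With the authors' factor undone it was 0.52 over the 94 then tested (90.4% above 0) and with positive control scaling 0.51 over the 97 then tested (90.7%). Differences of the leading miRNAs are therefore also given below with each sample centred on its median. Once centred, 3 were higher (miR-378, miR-132 and miR-2141) and 1 lower at an unadjusted limma p under 0.05. After scaling to the total 2 were higher and 2 lower. The intervals below are on the deposited scale. Of the 25 miRNAs with no overlap, 21 were higher under all 6 other scalings. The exceptions were miR-23a and let-7b, each lower after quantile normalization, let-7d, at 0.00 after it, and miR-151-5p, lower under 2 scalings.

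miR-378, encoded within Ppargc1b and known from mice as a regulator of mitochondrial fuel use, had the largest difference among the 11 apart from miR-2141. It read 385, 355 and 438 in HFD aortas and 283, 141 and 191 in NCD aortas. All 3 HFD aortas were above the chow aortas, the brightest of which was NCD replicate 1. The difference was 0.99 on the log2 scale (95% interval 0.27 to 1.70, 1.98-fold, limma adjusted p = 0.395). Centred on the sample medians it was 0.79, and without NCD replicate 1 it was 1.25. Of the total miRNA signal, miR-378 took 0.155% ± 0.019 in HFD aortas and 0.0952% ± 0.016 in NCD aortas.

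miR-132, induced by the transcription factor CREB and known in mice from endothelium during angiogenesis, had the smallest p. It read 140, 111 and 139 in HFD aortas and 89.0, 72.6 and 59.9 in NCD aortas. The diets did not overlap, and the lowest HFD aorta was replicate 2. The difference was 0.81 (0.26 to 1.37, 1.76-fold, limma adjusted p = 0.395). It was 0.62 when centred and 0.96 without NCD replicate 1.

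miR-2141, whose role is left out here, read 187, 78.6 and 196 in HFD aortas and 41.1, 76.3 and 27.5 in NCD aortas. HFD replicate 2 and NCD replicate 2 nearly met, and the lowest chow value lay under the detection limit. Its difference of 1.66 (0.43 to 2.90, 3.17-fold, limma adjusted p = 0.395) was the largest above 0 of the 99, and it was 1.47 when centred. miR-1224 came next at 1.64 (-0.43 to 3.71), or 1.44 when centred. It read 95.2, 62.4 and 76.2 in HFD aortas and 5.10, 57.7 and 42.5 in NCD aortas, so the size turned on NCD replicate 1, and it was 0.62 without that aorta.

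miR-652 was among the most evenly measured. It read 84.8, 93.1 and 95.9 in HFD aortas and 57.9, 67.0 and 58.3 in NCD aortas. Both groups were tight and apart by more than their spread on the deposited scale. It differed by 0.57 (0.14 to 1.00, limma adjusted p = 0.395), or by 0.38 when centred. Relative to all miRNA signal the diets overlapped, at 0.0383%, 0.0355% and 0.0340% in HFD aortas and 0.0201%, 0.0371% and 0.0333% in NCD aortas. miR-342-3p, which lies within Evl and is abundant in lymphoid cells, read 208, 152.1 and 204 in HFD aortas and 108, 112 and 142 in NCD aortas. Its lowest HFD aorta, replicate 2, was close to the highest chow aorta, replicate 3. The difference was 0.63 (0.09 to 1.18), or 0.44 when centred. Its share of the miRNA signal overlapped as well, from 0.0580% to 0.0940% in HFD aortas and from 0.0377% to 0.0812% in NCD aortas.

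miR-181a, known for tuning T cell signalling and for limiting inflammatory signalling in endothelium, read 1392, 1292 and 1601 in HFD aortas and 1003, 1060 and 917 in NCD aortas. The groups were apart, by 0.52 (0.07 to 0.97, limma adjusted p = 0.395). miR-25, from the miR-106b-25 cluster, read 363, 372 and 407 in HFD aortas and 312, 265 and 253 in NCD aortas. It too did not overlap, with a difference of 0.46 (0.02 to 0.91, limma adjusted p = 0.397). Centred on the sample medians these differences were 0.32 for miR-181a and 0.26 for miR-25. As shares of the miRNA signal both overlapped between the diets. miR-181a took 0.492% to 0.629% in HFD aortas and 0.349% to 0.587% in NCD aortas. miR-25 took 0.142% to 0.164% in HFD aortas and 0.109% to 0.147% in NCD aortas.

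**Figure D2:**
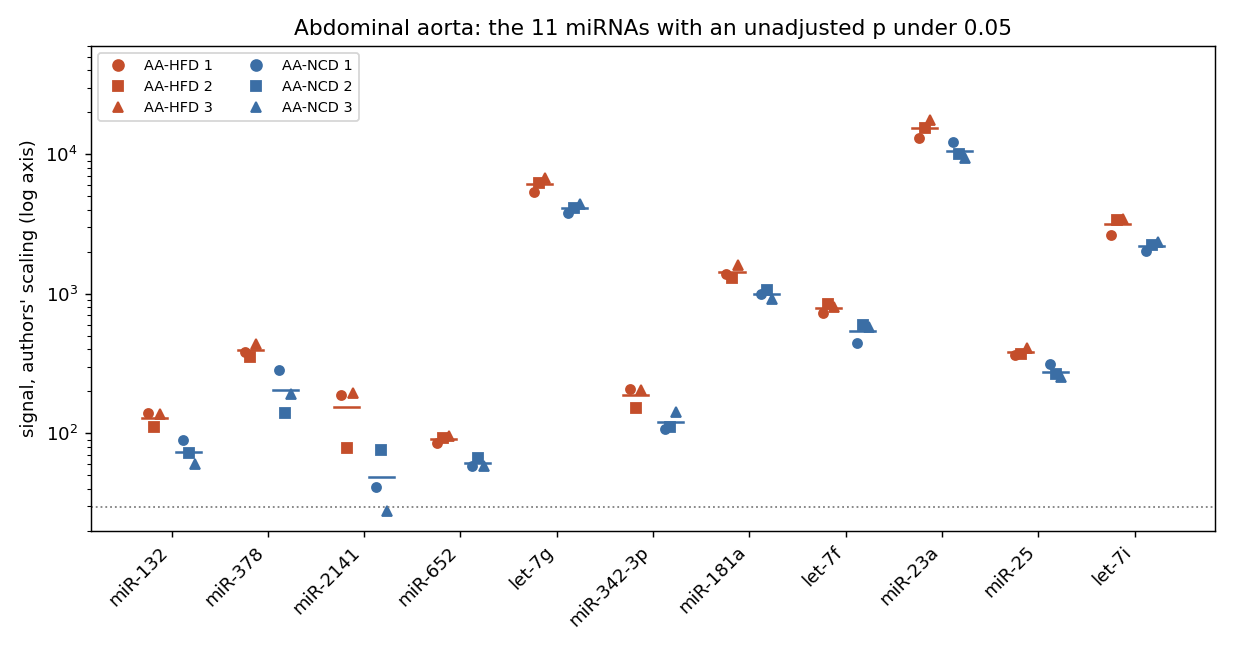
Signal of the 11 miRNAs with an unadjusted limma p under 0.05 in each aorta (log axis, deposited scale), ordered by p. HFD aortas are left of NCD aortas, shapes give the replicate, short lines the group mean and the dotted line the detection limit of 29.8. In each of the 11 the 3 HFD points lie above the 3 NCD points, with miR-2141 the closest to overlap (78.6 in HFD replicate 2, 76.3 in NCD replicate 2).

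All 9 members of the let-7 family, which represses growth genes such as Hmga2 and Ras and the RNA-binding protein Lin28, were tested. All 9 differences were above 0, beside 79.8% of all 99. For 6 of them the diets did not overlap, beside 25.3% of all tested miRNAs, and 3 of 9 had an unadjusted p under 0.05 beside 11.1%. None of the 9 passed. The median difference was 0.50, beside 0.24 over all 99. Scaled to the total it was 0.22 beside -0.04, with 8 of 9 above 0 beside 41.4%, and without NCD replicate 1 it was 0.43 beside 0.38.

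let-7g read 5399, 6289 and 6722 in HFD aortas and 3832, 4121 and 4401 in NCD aortas. The chow values lay close together and below all HFD values. The difference was 0.57 (0.12 to 1.02, 1.49-fold, limma adjusted p = 0.395), and 0.37 when centred. As a share of the miRNA signal let-7g overlapped, at 2.44%, 2.40% and 2.38% in HFD aortas and 1.33%, 2.28% and 2.52% in NCD aortas. let-7f read 726, 849 and 800 in HFD aortas and 446, 599 and 577 in NCD aortas, a difference of 0.56 (0.07 to 1.05). let-7i read 2630, 3368 and 3466 in HFD aortas and 2019, 2256 and 2367 in NCD aortas, a difference of 0.50 (0.02 to 0.99). Neither overlapped between the diets, and in both the lowest HFD aorta was replicate 1. Centred on the sample medians they were 0.36 for let-7f and 0.30 for let-7i. Scaled to the total and without NCD replicate 1, let-7f and let-7i were at -0.090 and -0.077.

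The brightest member was let-7d, at 9564 ± 863 in HFD aortas and 7149 ± 653 in NCD aortas (SD, n = 3 each). let-7c had the narrowest interval of all miRNAs measured in every aorta. It read 4751, 4772 and 4797 in HFD aortas and 3820, 3407 and 3679 in NCD aortas, a difference of 0.39 (-0.01 to 0.80, limma adjusted p = 0.414), or 0.20 when centred. let-7b averaged 6584 ± 516 after HFD and 5047 ± 772 on chow, and let-7e 1321 ± 58.3 after HFD and 1118 ± 222 on chow, where the diets overlapped.

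let-7a and miR-98 had larger differences but turned on NCD replicate 1, the lowest aorta for both. let-7a read 1028, 1751 and 1517 in HFD aortas and 406, 1314 and 1252 in NCD aortas. Its difference of 0.68 (-0.56 to 1.91) was 0.12 without that aorta. miR-98 read 75.9, 106.95 and 128 in HFD aortas and 31.5, 87.6 and 80.4 in NCD aortas, and its difference of 0.73 was 0.27 without it.

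The summed signal of the 9 probes was 32216, 33289 and 36078 in HFD aortas and 24131, 23959 and 26550 in NCD aortas. The diets did not overlap, with the smallest exact p that 3 against 3 allows (two-sided permutation, p = 0.10, or 0.817 adjusted over the 49 single measures computed). As a share of the miRNA signal the family took 14.5%, 12.7% and 12.8% in HFD aortas and 8.40%, 13.3% and 15.2% in NCD aortas. These shares overlapped, with both the lowest and the highest on chow.

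**Figure D3:**
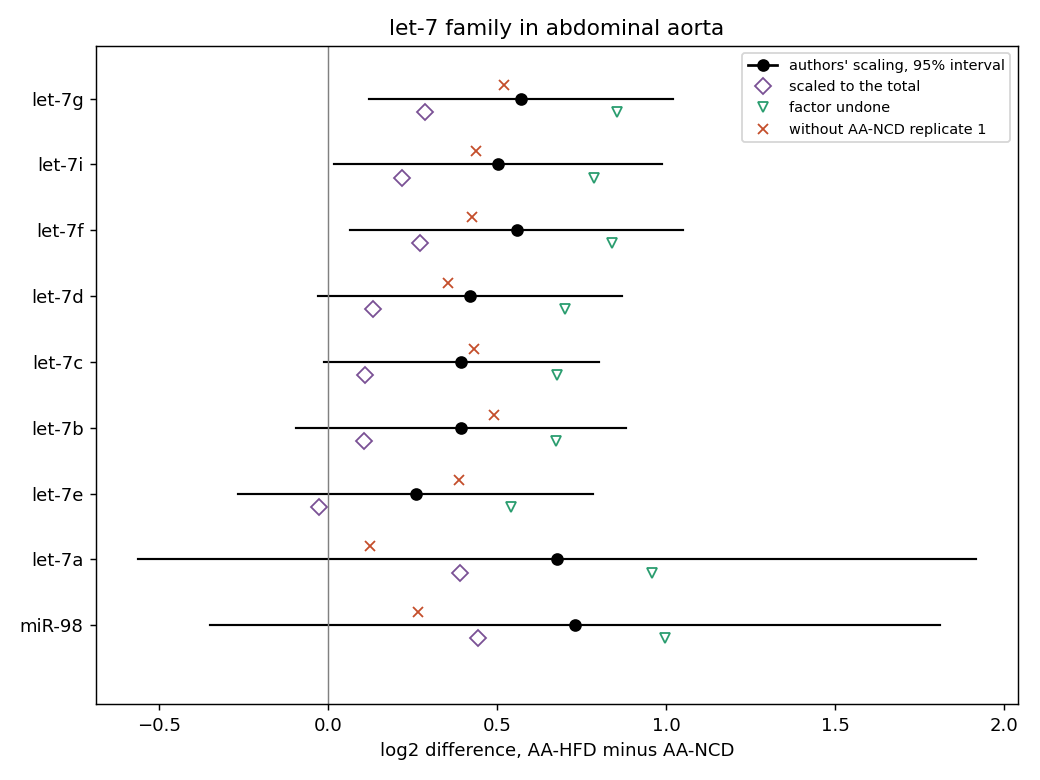
Log2 difference of each let-7 member, HFD minus NCD. Filled points with bars are the deposited scale with 95% intervals, diamonds the values scaled to the total, triangles the authors' factor undone and crosses the fit without NCD replicate 1. All filled points lie above 0, from 0.26 (let-7e) to 0.73 (miR-98), the intervals of let-7g, let-7f and let-7i exclude 0, and let-7e is below 0 when scaled to the total.

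miR-23a, miR-27a and miR-24, made from 1 transcript on chromosome 8 and known in mice from endothelial growth and from adipocyte differentiation, did not stand equally. miR-23a read 13110, 15440 and 17657 in HFD aortas and 12235, 10086 and 9480 in NCD aortas. The diets did not overlap, and HFD replicate 1 lay just above NCD replicate 1. The difference was 0.54 (0.02 to 1.05, limma adjusted p = 0.397), or 0.34 when centred, but -0.18 after quantile normalization. miR-27a read 7773, 6903 and 7838 in HFD aortas and 4535, 6851 and 4834 in NCD aortas, a difference of 0.50 (-0.05 to 1.04), or 0.30 when centred. miR-24 overlapped, at 316 ± 104 in HFD aortas and 283 ± 115 in NCD aortas, and its probe also reads the copy on chromosome 13. Of the 5 probes of this cluster and its paralogue, 4 were above 0 with a median of 0.17, beside 79.8% of all 99. After scaling to the total 2 of 5 were above 0, beside 41.4%.

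The miR-15/16 family, which restrains cell cycle genes, had 5 of 6 probes tested, 4 of them above 0 and 2 without overlap, with a median of 0.45, beside 79.8% above 0 and 25.3% without overlap over all 99. Scaled to the total 4 of 5 were above 0. miR-15b read 256, 297 and 257 in HFD aortas and 245, 136 and 190 in NCD aortas, a difference of 0.54 (-0.10 to 1.17), or 0.34 when centred. miR-322 read 47.6, 37.7 and 70.7 in HFD aortas and 33.9, 36.2 and 10.2 in NCD aortas, close to the detection limit. miR-195 of the same seed had the opposite sign at -0.47 (-2.18 to 1.23), with overlapping groups. Of the miR-17-92 group and its paralogous clusters, 3 of 11 probes were tested, all above 0 with a median of 0.46. The probe shared by miR-106a and miR-17 (the row miR-106a+miR-17) read 156, 171 and 198 in HFD aortas and 144, 116 and 119 in NCD aortas, with no overlap and a difference of 0.47 (-0.01 to 0.95), or 0.27 when centred.

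The miR-29 and miR-30 families and the miR-125 group had medians under the 0.24 of all tested miRNAs. The 3 miR-29 members, which repress collagens and elastin, had a median difference of 0.02, and miR-29a read 2755, 3914 and 3437 in HFD aortas and 4753, 2816 and 2632 in NCD aortas. Chow aortas were both higher and lower than the HFD aortas. The 5 miR-30 members had a median of 0.20, with 4 above 0 and 0 without overlap, and 1 of 5 above 0 after scaling to the total. The 7 members of the miR-125, miR-99, miR-100 and miR-10 group had a median of 0.15, with only miR-10a free of overlap. Of all 99, 79.8% were above 0 and 25.3% had no overlap, and 41.4% were above 0 after scaling to the total. miR-125b-5p, the second brightest probe, averaged 26729 ± 3022 in HFD aortas and 22851 ± 6664 in NCD aortas. The families of miR-148 with 2 tested (median 0.33), of miR-26 with 1 (0.31) and of miR-181 with 1 (0.52) stood above 0.24, and that of miR-103 with 1 (0.12) below it.

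Of the contractile smooth muscle markers, neither differed beyond its spread on the deposited scale. The difference was 0.02 (-0.73 to 0.77, limma adjusted p = 0.987) for miR-145 and 0.24 (-0.67 to 1.16, adjusted p = 0.892) for miR-143. Without NCD replicate 1 they were 0.32 and 0.54. Of the total miRNA signal, miR-145 took 23.4%, 25.5% and 24.2% in HFD aortas and 32.2%, 28.3% and 27.5% in NCD aortas. All 3 HFD shares were below all 3 chow shares (exact two-sided permutation p = 0.10, the smallest possible, 0.817 adjusted over 49 measures). In limma after scaling to the total, the difference of miR-145 was -0.26 and did not pass. The share of miR-143 overlapped, at 5.47% ± 1.2 in HFD aortas and 5.55% ± 0.57 in NCD aortas.

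Of 12 miRNAs known from smooth muscle phenotype and neointima, the thickening of an injured vessel wall, 7 were tested, 5 of them above 0 with a median of 0.17, and 1 of 7 (miR-132) had no overlap. On the deposited scale 79.8% of all 99 were above 0 and 25.3% had no overlap. Scaled to the total 3 of 7 were above 0, beside 41.4% of all 99. miR-21, raised in injured vessels of rats, read 289, 684 and 541 in HFD aortas and 561, 280 and 272 in NCD aortas. The diets overlapped widely, and the 95% interval of the fold ran from 0.649 to 2.83. miR-221 and miR-222, which promote smooth muscle growth in injured vessels of rats, were below the detection limit in all 6 aortas, as were miR-34a and miR-155. Of 7 flow-responsive miRNAs, 2 were tested and 5 were below the limit in every aorta. miR-10a, which restrains inflammatory signalling in endothelium, was one of the 2, at 1189 ± 145 in HFD aortas and 968 ± 43.4 in NCD aortas without overlap.

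The endothelial marker miR-126-3p was higher in every HFD aorta than in any NCD aorta, with a difference of 0.43 (-0.09 to 0.95, limma adjusted p = 0.436). Its difference was 0.23 when centred and 0.14 after scaling to the total. Its partner arm miR-126-5p lay around the limit, at 13.4, 63.6 and 36.7 in HFD aortas and 36.3, 19.4 and 30.7 in NCD aortas. Together the 2 arms overlapped as a share of the miRNA signal, at 1.63%, 1.39% and 1.68% in HFD aortas. In NCD aortas they took 1.15%, 1.42% and 1.72%. miR-199a-3p, abundant in fibroblasts and other mesenchyme, read 5405, 5584 and 5668 in HFD aortas and 3643, 4395 and 4535 in NCD aortas. The groups did not overlap, and the difference was 0.41 (-0.03 to 0.85, adjusted p = 0.414), or 0.21 when centred. The other arm, miR-199a-5p, overlapped, at 974, 1452 and 1360 in HFD aortas and 1899, 883 and 949 in NCD aortas. Its difference was 0.09. As a share of the miRNA signal, the 3 mesenchyme probes overlapped. They took 2.88%, 2.68% and 2.50% in HFD aortas and 1.94%, 2.92% and 3.14% in NCD aortas.

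**Figure D4:**
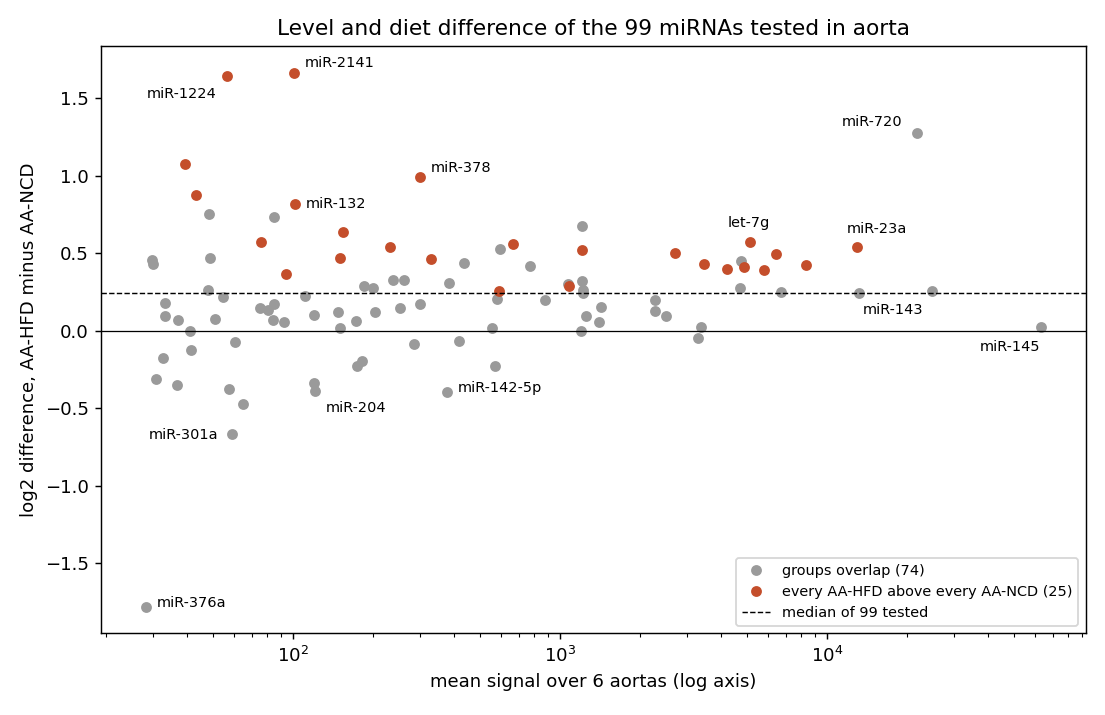
Mean signal over the 6 aortas (log axis) against the log2 difference, HFD minus NCD, for the 99 tested miRNAs. Coloured points are the 25 for which every HFD aorta lay above every NCD aorta, and the dashed line is the median of 0.24. The coloured points span the range of levels, no point below 0 is coloured, and miR-145, the brightest, lies at 0.02.

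Markers of other cell types that a dissected aorta can hold were low or overlapped. The summed signal of 5 leukocyte miRNAs ran from 406 to 889 in HFD aortas and from 466 to 1330 in NCD aortas, highest in NCD replicate 1. miR-155 of this list was under the limit in every aorta. miR-223, the myeloid miRNA, read 120, 113 and 134 in HFD aortas and 159, 83.8 and 112 in NCD aortas. miR-142-5p, made in blood cells, read 476, 158 and 270 in HFD aortas and 902, 248 and 207 in NCD aortas. It varied more within each diet than between them. miR-451, abundant in red cells, read 1419, 1680 and 891 in HFD aortas and 1655, 733 and 897 in NCD aortas.

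Of 6 fat-associated miRNAs, 3 were tested and 1 was above 0, beside 79.8% of all 99. The summed signal of the 6 ran from 615 to 681 in HFD aortas and from 499 to 1124 in NCD aortas. miR-365, linked to brown fat, read 425, 537 and 576 in HFD aortas and 928, 523 and 435 in NCD aortas, with the highest value again in NCD replicate 1. The 5 epithelial miRNAs summed to between 92.3 and 259 in HFD aortas and between 113 and 386 in NCD aortas, with 1 of 5 tested (miR-200b), and the 4 neuronal miRNAs were below the limit in all 6 aortas. Of striated muscle miRNAs, miR-1 read 492, 736 and 898 in HFD aortas and 545, 456 and 436 in NCD aortas, and miR-133a 266 ± 33.4 after HFD and 240 ± 23.7 on chow. The part of these cell types in the diet differences was not tested.

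Among miRNAs of metabolism and obesity, 4 of 11 were tested and all 4 were above 0 with a median of 0.18, of which miR-378 alone had no overlap. Of 12 miRNAs that respond to lipopolysaccharide and NF-kB, 6 were tested and all 6 were above 0 with a median of 0.18, of which miR-132 alone had no overlap. Over all 99, 79.8% were above 0 and 25.3% had no overlap. Scaled to the total, 1 of the 4 and 2 of the 6 were above 0, beside 41.4% of all 99. miR-146a, the best known of them, read 84.8, 66.6 and 101 in HFD aortas and 132, 59.5 and 63.0 in NCD aortas. Its groups overlapped and its difference was 0.07 (-0.82 to 0.95). Of the Dlk1-Dio3 and Sfmbt2 clusters, large groups of miRNAs at imprinted loci, 3 of 48 and 1 of 33 probes were tested.

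On the lower side the 20 miRNAs with a difference below 0 all overlapped between the diets. For 14 of the 20 NCD replicate 1 was the highest of the 6 aortas, and without it 14 of the 20 were above 0. miR-204, which lies within Trpm3 and is known in mice for limiting calcification of smooth muscle, was not among those 14 reversals. It read 98.2, 99.7 and 112 in HFD aortas and 175, 103 and 136 in NCD aortas. HFD replicate 3 overlapped NCD replicate 2, and the difference was -0.39 (-0.98 to 0.21, limma adjusted p = 0.534). It stayed below 0 under all 6 other scalings, at -0.59 when centred, -0.67 after scaling to the total (limma adjusted p = 0.725), -0.11 with the factor undone and -0.13 with positive control scaling, and was -0.20 without NCD replicate 1. miR-574-3p read 92.2, 98.5 and 105 in HFD aortas and 250, 89.4 and 86.7 in NCD aortas, and was at -0.34 with NCD replicate 1 and 0.16 without it.

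miR-720, a probe whose target is by later work a fragment of a transfer RNA, depended on that aorta for its call. It read 23539, 26371 and 32797 in HFD aortas and 34823, 7237 and 5697 in NCD aortas. The chow group spanned the HFD values, and the difference of 1.28 (-0.40 to 2.95) had an adjusted p of 0.445. Without NCD replicate 1 the difference was 2.09 (4.25-fold) and miR-720 was the only one of 104 miRNAs (0.962%) to pass limma, with an adjusted p of 0.027. At an unadjusted p under 0.05, 16 of the 104 were higher (15.4%). Over 25 alternatives the adjusted p of miR-720 ran from 0.021 to 0.995, with 4 passing, all 4 without NCD replicate 1. With the same 99 miRNAs tested, miR-1937c passed beside it. miR-1937c read 40.2, 32.8 and 41.1 in HFD aortas and 147, 12.8 and 15.7 in NCD aortas. Without that aorta 48 of 99 miRNAs (48.5%) had no overlap, all higher, and the median difference was 0.38. This too followed the scaling. Without that aorta and scaled to the total, the median was -0.14 over 104 miRNAs, with 28.8% above 0.

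Whether the diet difference in aorta differed from that in mesenteric fat was tested as an interaction over the 4 groups. Of 175 miRNAs, 3 passed as lower in aorta relative to fat (1.71%) and 0 as higher (0.0%). They were miR-222 and both arms of miR-335, with limma. All 3 entered the test through fat alone, and their aorta values lay at or near the floor, which sets the size of the interaction. They therefore show no difference of the diet effect in aorta itself. miR-335-5p, from the imprinted gene Mest, read 17.9, 3.31 and 15.9 in HFD aortas and 43.5, 15.6 and 7.79 in NCD aortas, with 1 of 6 over the limit. In fat it had a median of 1811 (1469 to 2354) in MAT-HFD and 127 (76.2 to 330) in MAT-NCD. The other 2 never read above 2.40 in aorta, so their diet difference there is unknown.

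miR-378 was higher after HFD in aorta but not in fat. In fat its median was 1312 (699 to 1424) in MAT-HFD and 1381 (1180 to 1661) in MAT-NCD, which overlapped. The interaction was 1.26 ± 0.39 (SE, 95% interval 0.42 to 2.10), with a limma adjusted p of 0.214. It passed in limma after centring on the median, top-100 scaling or scaling to the total, with sample weights, and without NCD replicate 1 (interaction 1.52, adjusted p = 0.043). Over all 24 alternatives its adjusted p ran from 0.013 to 0.999, with 7 passing. The descriptions number aortas under the letter C and fat samples under A, so tissue and any batch behind that letter cannot be told apart. For miR-132 the interaction was -0.06 and for let-7g 0.32, with adjusted p of 0.981 and 0.858.

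**Figure D5:**
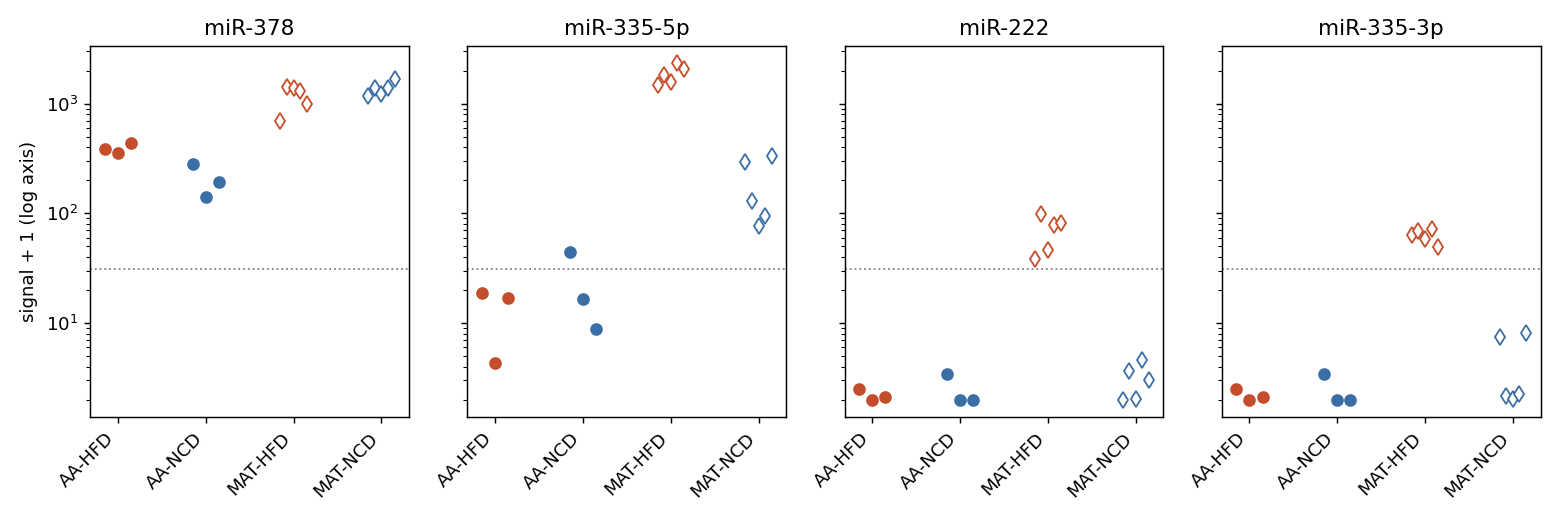
Signal + 1 (log axis) of miR-378 and of the 3 miRNAs that passed the interaction test, in aorta (filled, 3 samples a diet) and mesenteric fat (open, 5 a diet), HFD left of NCD in each tissue. The dotted line is the detection limit. miR-378 is higher in all HFD aortas than in all NCD aortas and overlaps in fat, while miR-222 and miR-335-3p lie under the limit in all 6 aortas and miR-335-5p in 5 of 6.

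The 4 messenger RNA probes on the panel did not separate the diets. Actb read 9515, 4471 and 6955 in HFD aortas and 4142, 8375 and 5862 in NCD aortas, an overlap with NCD replicate 1 the lowest (exact two-sided permutation p = 0.70, n = 3 each). B2m averaged 840 ± 333 in HFD aortas and 808 ± 125 in NCD aortas, Gapdh 236 ± 77.8 in HFD aortas and 186 ± 67.9 in NCD aortas, and Rpl19 761 ± 299 in HFD aortas and 729 ± 222 in NCD aortas. Per 1000 units of miRNA signal Actb was 28.2 ± 13 in HFD aortas and 31.4 ± 16 in NCD aortas.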

How the data were processed

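Per the labels, total RNA of tissues was brought to a common concentration range and read with fluorescent barcode and biotin probes. The deposited values are signal values of the authors: their low values show counts with the background taken off, a floor of 1 and 1 multiplying factor per sample, which the positive and negative controls did not receive. This was read from the spacing of values under 60, with the lowest value of each sample left out. All of them lay at whole steps of the factor from a starting value, within 0.1 of a step. How the background and the factor were set, and with which tool, is not given in the sources used here. With the factor undone, the 6 aortas held 119754 to 435641 counts above background. This can limit the precision of the dimmer samples, which was not tested.

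Samples were grouped by their titles. The limit of 29.8 is the mean plus 2 SD of 240 negative control values. A miRNA was tested if over it in at least 3 of the 6 aortas. Values are not counts, so limma 3.58.1 in R 4.3.3 was used on log2(signal + 1), on the 2 groups alone or, for the interaction, on 4 groups, with Benjamini-Hochberg adjustment. Folds of dim miRNAs on this scale can be off either way: the added 1 shrinks them, and single values near the floor can enlarge them. For miR-1224 the log2 difference was 1.64 with NCD replicate 1, which read 5.10, and 0.62 without it. Single values were compared with exact permutation tests.

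The miRNAs named are the 12 with the smallest p, the 5 highest and 5 lowest differences among those over the limit in all 6 aortas, the 6 largest without overlap, the 10 brightest, up to 4 per list, fixed vascular and metabolic miRNAs and those with the narrowest and widest intervals. Values are given for most of these. miR-1937c and miR-151-5p were named after their values were seen. The samples, lists and rule were chosen with earlier results of these data known. Alternatives were other pseudocounts, filters, limits, scalings, priors, weights, a replicate block, all 30 samples in 1 fit and leaving out each aorta. Combinations without NCD replicate 1 were added after seeing the data.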

Additional observations from a re-analysis of the deposited data

Results flagged for a closer look

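In a limma interaction test of the diet difference in aorta against that in mesenteric fat over the 4 groups, miR-222 (-4.59 on the log2 scale), miR-335-3p (-4.24) and miR-335-5p (-4.30) passed. They passed the filter on low values only through fat, and with aorta values at or near the floor the sizes are set by the floor, so they say nothing of the diet effect in aorta. All 3 were under the detection limit in every HFD aorta. On chow 1 of 3 aortas exceeded it for miR-335-5p and none for the other 2. When every value under the limit was raised to it, miR-222 was at -1.06 and no longer passed (adjusted p = 0.152, the highest of its 24 alternatives, of which 23 passed). Both arms of miR-335 still passed in that setting. There miR-221, which was under the limit in every aorta, passed as well (-3.30, limma adjusted p = 8.2e-06). Groups of 3 aortas are too small for a test of outlying samples, so NCD replicate 1 was set apart by its ligation control and factor and by no such test. Its miRNA total was the highest as deposited and the lowest with the factor undone (119754 counts above background).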

How the results depend on the processing

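The count of called miRNAs for AA-HFD against AA-NCD was 0 under each alternative that kept all 6 aortas. At an adjusted p under 0.10 it was 0 as well, other than 18 with sample weights. Leaving out each aorta gave 0 to 1, the 1 (miR-720) without NCD replicate 1. The added fits without NCD replicate 1 gave 2 with the same miRNAs tested, 1 after scaling to the total and 1 without HFD replicate 1 as well. The number at an unadjusted p under 0.05, 11 as reported, ranged from 1 (all 30 samples in 1 fit, or positive control scaling) to 32 (sample weights) with all aortas kept and from 2 to 17 with 1 left out. The share higher, 79.8% as reported, was 24.2% with no filter, which admits the 434 probes over the limit in no aorta. The floor differed between aortas: miR-155, for example, read 1.49, 1.00 and 1.10 in HFD aortas and 2.40, 1.00 and 1.00 in NCD aortas. Probes at the floor in all 6 aortas thus count as lower after HFD without being detected. With 1 aorta left out the share higher was 57.4% to 90.4%. Same-numbered aortas deviated together at r of 0.10, -0.22 and -0.23. The labels do not say whether the numbers pair the aortas, and 3 such values cannot settle it. The replicate block gave 0 calls, 5 at an unadjusted p under 0.05, and 3 calls in the interaction.

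For the diet effect in aorta minus diet effect in mesenteric fat, 3 were called as reported, 5 with no filter, 8 with sample weights, 3 to 7 with 1 aorta left out (7 without NCD replicate 1, 5 without NCD replicate 2), and 6 in both added fits without NCD replicate 1. Of the 11 miRNAs with an unadjusted p under 0.05, those that changed sign were miR-23a (-0.18 after quantile normalization), let-7f (-0.090) and let-7i (-0.077), both without NCD replicate 1 and scaled to the total. Of all 73 named and tested miRNAs, 40 came to 0 or changed sign in at least 1 other setting or with 1 aorta left out. The difference in probes over the limit, -2.67 as reported, was 8.0 with the factor undone and -8.33 to 4.67 with 1 aorta left out, the highest without NCD replicate 1. The ratio of HFD to NCD means turned from above 1 to 0.898 for Actb, 0.865 for B2m, 0.998 for Gapdh and 0.827 for Rpl19 when divided by the total miRNA signal. The cause was not tested for any of these.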
